A study of Mus musculus with 8 samples.

Results

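The regenerating (Reg) family of small secreted C-type lectins was followed on 8 microarrays of mouse small intestine. The members were Reg1, Reg3a, Reg3b, Reg3g and Reg4. They were found by the gene symbol that RefSeq gives to the accession of each non-control probe, so no measured value chose them. Each of the 5 genes had 1 probe among 39429 probes of the array, and all 5 were among the 21308 genes tested. The tested genes were those with a probe well above background on at least 2 arrays, and each member's probe was well above background on all 8.

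The RNA was total RNA of small intestine, from C57BL/6J Min/+ mice, which carry a truncating Apc mutation on 1 allele and develop intestinal adenomas. The study set a Western-type diet against a control diet, and females against males, with 2 single-colour arrays in each of 4 groups. The labels give 1 to 3 mice per array, so an array can hold pooled animals, and they give a feeding time of 18 months. They do not name the segment of the small intestine, nor do they separate adenoma from normal mucosa.

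The groups were Western females, Western males, Control females and Control males, and every group carried the Min allele. The Western-type diet was modified from AIN-93G to hold more fat and less fibre, vitamin D, calcium and folate, and milk supplied 66.4% of its fat, and plant oils (rapeseed and sunflower) supplied the remaining 33.6%. The control animals ate the semisynthetic AIN-93G diet without changes. Nothing in the labels states that both arrays of a group came from separate animals, so p-values reflect the spread among arrays alone, and that spread can be technical. The number of arrays limits the precision of every value.

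Reg proteins are short secreted lectins that carry a single sugar-binding domain. In the small intestine Reg3b and Reg3g are made by enterocytes and Paneth cells, where contact with bacteria raises them through MyD88 and through interleukin-22 and STAT3, and both act against bacteria near the epithelium. Reg1 was first described in regenerating pancreatic islets and is abundant in pancreatic acinar cells, and Reg4 marks secretory cells of the intestine and is often raised in gastrointestinal tumours.

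Reg1, Reg3a, Reg3b and Reg3g lie in 1 cluster on mouse chromosome 6, in the order Reg3b, Reg3d, Reg3a, Reg2, Reg1, Reg3g, and Reg4 lies on chromosome 3. The promoter windows of the 3 Reg3 members are shown from 250 bases before to 50 bases after the annotated start, 5′ to 3′ on the strand of the gene, from RefSeq on GRCm38.p6. The windows were chr6:78370635-78370934 on the plus strand for Reg3b, chr6:78468825-78469124 on the minus strand for Reg3g, and chr6:78380459-78380758 on the plus strand for Reg3a. Capitals mark matches on either strand to TTCNNNGAA (the STAT dimer pattern), TATAAA (the TATA box) and CACCTG (an E-box). The last of these was chosen after the sequences had been read.
Reg3b: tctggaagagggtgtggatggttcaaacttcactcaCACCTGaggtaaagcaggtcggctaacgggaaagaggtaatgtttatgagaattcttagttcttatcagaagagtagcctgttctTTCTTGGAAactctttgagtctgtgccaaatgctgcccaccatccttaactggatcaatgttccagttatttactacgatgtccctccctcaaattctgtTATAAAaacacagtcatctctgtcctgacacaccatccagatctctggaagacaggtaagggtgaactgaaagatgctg
Reg3g: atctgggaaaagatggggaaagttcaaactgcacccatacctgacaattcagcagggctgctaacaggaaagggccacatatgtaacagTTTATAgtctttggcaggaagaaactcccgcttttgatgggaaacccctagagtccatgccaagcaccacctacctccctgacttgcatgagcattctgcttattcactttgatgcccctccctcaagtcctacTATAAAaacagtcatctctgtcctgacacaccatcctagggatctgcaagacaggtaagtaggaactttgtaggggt
Reg3a: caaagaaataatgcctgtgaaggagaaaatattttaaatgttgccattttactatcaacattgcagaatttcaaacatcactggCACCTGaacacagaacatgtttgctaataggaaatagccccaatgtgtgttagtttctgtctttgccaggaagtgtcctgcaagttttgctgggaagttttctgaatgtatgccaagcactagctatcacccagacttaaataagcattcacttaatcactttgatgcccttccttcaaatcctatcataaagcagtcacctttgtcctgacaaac

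The Reg3b and Reg3g windows were 68.6% identical over a global alignment, against 47.5% for Reg3a with Reg3b and 52.4% for Reg3a with Reg3g. Reg3b held TTCNNNGAA with its first base 129 bases before the start, and TATAAA 29 bases before it. Reg3g held TATAAA 27 bases before the start and again on the opposite strand 161 bases before it. Reg3a held neither of these patterns and held CACCTG 166 bases before the start, and Reg3b held CACCTG 214 bases before it. Reg1 carried TATAAA 30 bases before its start and once more on the opposite strand after it, and Reg4 carried CACCTG 132 bases before its start. Of 32851 mouse promoter windows of the same length, 8.30% held TTCNNNGAA, 13.6% held TATAAA and 20.2% held CACCTG, and none of the 3 patterns overlapped another in the windows shown. A match describes letters only and was not tested for binding.

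**Figure D1:**
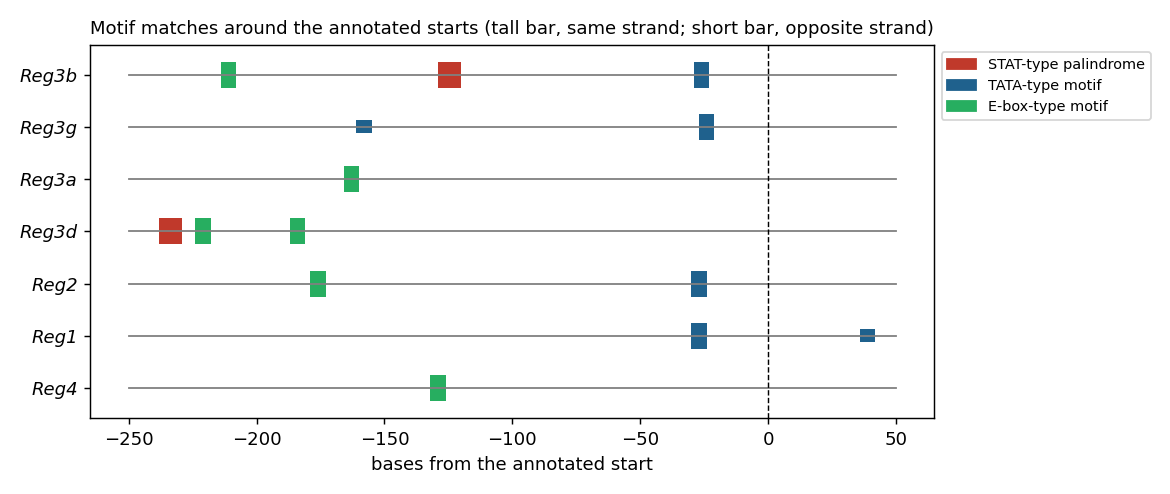
Positions of the 3 letter patterns in the promoter windows of the 7 Reg genes with an entry, drawn by distance in bases from the annotated start. Tall bars are matches on the strand of the gene and short bars matches on the opposite strand. Reg3b is the only one of the 5 members with a match to the STAT pattern, 129 bases before its start.

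Values below are log2 of the processed signal relative to the 75th percentile of the array, which lay between 486 and 902 in signal units. The scanner marked no spot as saturated on any array (0 spots). Control female 2 had 75.6% of its probes well above background and the other 7 arrays had 55.1% to 61.9%, and it stood apart on the first principal component (score -146, against -1.59 to 33.3 on the others). In the library labelled Control female 1, Y-linked transcripts were as high as in males. Ddx3y, an RNA helicase, measured -0.46 there, against -7.56 to -6.91 on the other 3 female arrays and -1.04 to -0.67 on the male arrays. The name of its deposited file also carries the abbreviation used for the Western diet, against its label. That library stayed in its labelled group, where it counts among the female arrays below. For each member the diet difference averaged over the sexes and the sex difference are given with and without it. Within females only the Reg1 diet difference is also given without it by name. Leaving it out leaves Control female 2, which stood apart, as the only Control female array. Defining genes of small intestine were well above background on all 8 arrays. The ileal bile acid binding protein Fabp6 averaged 9.38 ± 0.19 on the Western arrays and 9.58 ± 0.08 on the control arrays, and the Paneth cell lysozyme Lyz1 averaged 7.86 ± 0.12 on the Western arrays and 7.95 ± 0.11 on the control arrays (SD, n = 4 each).

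Reg3b was the most even member of the family. It measured 8.91 and 8.49 on the Western female arrays, 8.60 and 8.96 on the Western male arrays, 8.65 and 8.78 on the Control female arrays, and 8.93 and 8.77 on the Control male arrays. The highest and the lowest array were 1.39-fold apart, and every group overlapped the others. Its standard deviation over the 8 arrays was 0.17, and 85.8% of all tested genes had a larger one (median 0.33). That share is over genes of every brightness. The similarly bright Fabp6 had an SD of 0.19 on the Western and 0.08 on the control arrays, against 0.23 and 0.11 for Reg3b. The processed signal of Reg3b lay between 214502 and 350555. The signal was 33.0% to 52.8% of the scanner's saturation value.

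Reg3g, the gene at the other end of the chromosome 6 cluster, separated the sexes as labelled. It measured 6.79 and 6.98 on the Western female arrays, 8.42 and 7.78 on the Western male arrays, 7.03 and 7.26 on the Control female arrays, and 8.50 and 7.62 on the Control male arrays. All 4 arrays labelled female lay below all 4 male arrays, while the diets overlapped. The library labelled Control female 1, with Y-linked transcripts as high as in males, measured 7.03, below Control female 2 at 7.26. Counted with the males, it would make the sexes overlap. Its standard deviation over the arrays was 0.65, and 22.6% of all genes had a larger one.

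Reg3a measured 5.37 and 5.24 on the Western female arrays, 4.65 and 5.34 on the Western male arrays, 5.42 and 5.35 on the Control female arrays, and 4.47 and 4.48 on the Control male arrays. The 4 female arrays lay close together (SD 0.07), and 3 of the 4 male arrays lay below them. Western male 2, at 5.34, lay within the female range. The Control males were the lowest group, below both Western males.

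Reg1 measured -1.57e-05 (the 75th percentile itself) and -1.12 on the Western female arrays, -0.85 and -1.17 on the Western male arrays, -1.23 and 1.84 on the Control female arrays, and -0.90 and -1.94 on the Control male arrays. A single array, Control female 2, lay far above the rest, and the highest and the lowest array were 13.7-fold apart. The standard deviation was 1.15, exceeded by 8.22% of all genes. Control female 2 was also the array with the highest summed signal of the 7 pancreatic acinar genes that passed the filter, 1.12 times the 75th percentile, against 0.571 to 0.805 on the other 7 arrays. By group this sum was 0.571 to 0.805 on the Western and 0.660 to 1.12 on the control arrays. Cela3b, Pnliprp1, Ctrb1 and Cel were highest on Control female 2. Gp2 was highest on Western female 1 (-1.37), Amy2a5 on Control male 1 (-3.24) and Cela1 on Western male 1 (-2.95). Control female 2 was also the array with the largest share of all probes well above background (75.6%). Of 13 acinar genes with a probe, the lipase Pnlip was well above background on 0 arrays and Cela2a, Cpa1, Cpb1, Prss2 and Try4 on 1 array each. The part of acinar RNA in the Reg1 values was not tested.

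Reg4 measured 1.29 and 1.98 on the Western female arrays, 0.71 and 1.76 on the Western male arrays, 1.60 and 1.84 on the Control female arrays, and 1.53 and 1.38 on the Control male arrays. Neither the diets nor the sexes separated, and Western male 1 was the lowest array. Its standard deviation was 0.40, with 41.2% of genes above it.

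**Figure D2:**
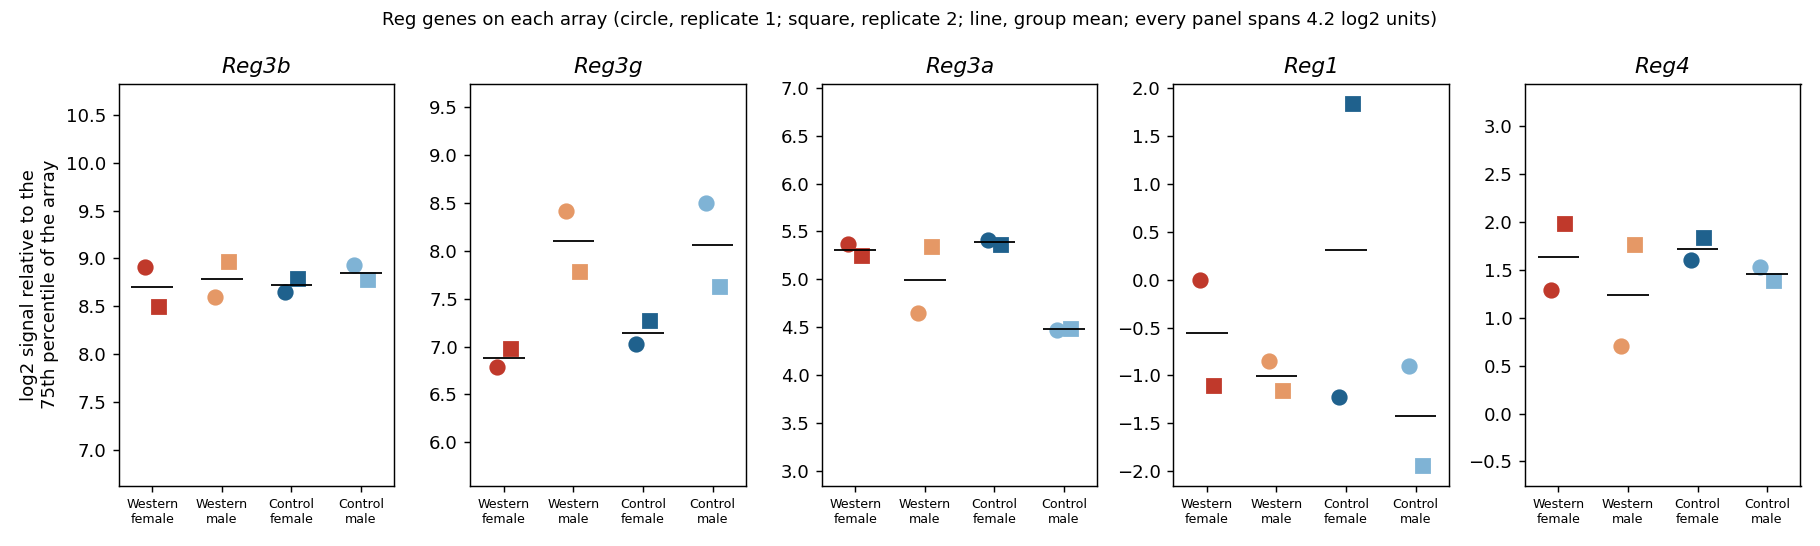
Log2 signal of each Reg gene relative to the 75th percentile of the array, by group, with a circle for replicate 1, a square for replicate 2 and a line for the group mean. All panels span the same number of log2 units, so that Reg3b (8.49 to 8.96) appears flat. Reg3g separates arrays labelled female (6.79 to 7.26), with the library labelled Control female 1 among them, from arrays labelled male (7.62 to 8.50). Reg1 has 1 high array, Control female 2, at 1.84.

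The first comparison in the study's design set the Western diet against the control diet. None of the Reg genes was shown to differ. Averaged over the sexes, the Western over control ratio of Reg3a was 1.16 (log2 0.22 ± 0.19 SE, 95% interval -0.25 to 0.69), Reg3b differed by -0.04 ± 0.17 (-0.47 to 0.38) and Reg3g by -0.11 ± 0.26 (-0.75 to 0.53). Reg1 differed by -0.22 ± 0.71 (-1.97 to 1.52) and Reg4 by -0.15 ± 0.29 (-0.86 to 0.56). The interval was narrowest for Reg3b and widest for Reg1, whose difference was 0.54 without Control female 2. Without the library labelled Control female 1 the differences were -0.99 for Reg1, 0.24 for Reg3a, -0.075 for Reg3b, -0.17 for Reg3g and -0.21 for Reg4 (limma adjusted p between 0.352 and 0.971). The Reg3a difference was 0.39 without Western male 1 and 0.046 without Western male 2.

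By limma, 0 of the 5 members passed a Benjamini-Hochberg adjusted p of 0.05 (adjusted p 0.995 for Reg3a and 0.999 for the other 4), and 0 of 5 had an unadjusted p under 0.05. Across all genes 0 of 21308 passed (0%; smallest adjusted p = 0.125) and 4.27% had an unadjusted p under 0.05. The diets overlapped for every member (0 of 5 without overlap, against 3.15% of all genes), while centring on the array median called 65 genes. That centring moved the median diet difference of all genes to 0.31, against -0.06 with the 75th percentile, and turned the sign for Reg1, Reg3b, Reg3g and Reg4 but not for Reg3a. Each centring subtracts a single amount per array, so a difference relative to the median of all genes is bound to stay nearly the same. Relative to that median Reg3b stood at 0.02 and Reg3a at 0.28. In bulk tissue, fewer cells of a type and less RNA per cell cannot be told apart.

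Within females, Reg3g averaged 6.88 ± 0.13 on the Western arrays and 7.14 ± 0.17 on the control arrays (SD, n = 2 each). Both Western female arrays lay below both Control female arrays, which include the library labelled Control female 1, and the difference was -0.26 ± 0.37 SE (limma adjusted p = 0.986). Reg1 differed by -0.86 ± 1.01 in females, but by 0.67 when Control female 2 was left out. Leaving out the library labelled Control female 1 in its place gave -2.39 (limma adjusted p 0.125). Within males, Reg3a was 4.65 and 5.34 on the Western arrays and 4.47 and 4.48 on the control arrays, without overlap, a difference of 0.52 ± 0.27 SE (adjusted p = 1.000) that was 0.86 without Western male 1 and 0.17 without Western male 2. In each sex this was 1 of 5 members without overlap, where 31.3% of all genes in females and 25.1% in males did not overlap. Counts past the adjusted threshold were 0 of 5 in each sex, as were counts at an unadjusted p under 0.05. Over all genes 0% passed the adjusted threshold in either sex, and 5.09% in females and 1.30% in males had an unadjusted p under 0.05.

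The difference between the sexes in the diet effect, females minus males, was -0.60 ± 0.38 SE for Reg3a (95% interval -1.53 to 0.34), -1.28 ± 1.42 for Reg1 and -0.30 ± 0.53 for Reg3g. Reg3b gave 0.05 ± 0.35 and Reg4 0.14 ± 0.58. None of the 5 passed (0 of 5; 0% of all genes by the adjusted p, and 1.62% of all genes and 0 of 5 members at an unadjusted p under 0.05; limma adjusted p = 1.000 for each).

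The second comparison in the design set females against males. Reg3g averaged 7.01 ± 0.20 on the female arrays and 8.08 ± 0.45 on the male arrays (SD, n = 4 each), which is 2.09-fold lower in females (log2 -1.07 ± 0.26 SE, 95% interval -1.71 to -0.42). Reg3a averaged 5.35 ± 0.07 on the female arrays and 4.74 ± 0.41 on the male arrays, 1.53-fold higher in females (0.61 ± 0.19 SE, 0.14 to 1.08). So 2 lectin genes of 1 cluster had differences of opposite sign, and both signs were the same under every alternative run for the sex comparison.

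Neither passed the adjusted threshold. The unadjusted p from limma was 0.00663 for Reg3g and 0.0190 for Reg3a, and the adjusted p was 0.906 for both. Thus 0 of 5 members passed after adjustment (0% of all genes; smallest adjusted p 0.571), and 2 of 5 had an unadjusted p under 0.05, against 3.85% of all genes. By the labels, Reg3g was the only 1 of the 5 whose sexes did not overlap, as for 2.99% of all genes (1.03% lower on all female arrays). Centring on the array median called 83 genes for sex and no member. It moved the median sex difference of all genes to -0.17, against 0.08 with the 75th percentile, and gave -1.31 for Reg3g (limma unadjusted p 0.00417) and 0.36 for Reg3a (0.420).

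Without the library labelled Control female 1, Reg3g differed by -1.01 and Reg3a by 0.59. The Control females then rest on Control female 2 alone, the array that stands apart. The other 3 female arrays measured 6.79 to 7.26 for Reg3g. Within the Western arrays Reg3g differed by -1.22, and within the control arrays by -0.91. On slide 1, which held replicate 1 of every group, the difference was -1.55. On slide 3 a single pair, Control female 2 against Control male 2, gave -0.35. These 2 values are not alike in make-up, since slide 1 averages both diets and holds the library labelled Control female 1, while slide 3 rests on the array that stands apart. Reg3a differed by 0.31 within the Western arrays and by 0.91 within the control arrays, and gave 0.83 on slide 1 and 0.87 on slide 3.

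Reg1 averaged -0.13 ± 1.42 on the female arrays and -1.22 ± 0.50 on the male arrays, a difference of 1.09 ± 0.71 SE (adjusted p = 0.906). It rested on Control female 2. Without that array the difference was 0.32, and without the library labelled Control female 1 it was 1.85 (adjusted p = 0.137). Reg4 differed by 0.33 ± 0.29 SE (-0.38 to 1.04), and by 0.39 without the library labelled Control female 1. Leaving out a Western male array moved it to 0.069 (replicate 1) or 0.59 (replicate 2). Reg3b differed by -0.11 ± 0.17 SE (-0.53 to 0.32), and by -0.072 without the library labelled Control female 1.

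**Figure D3:**
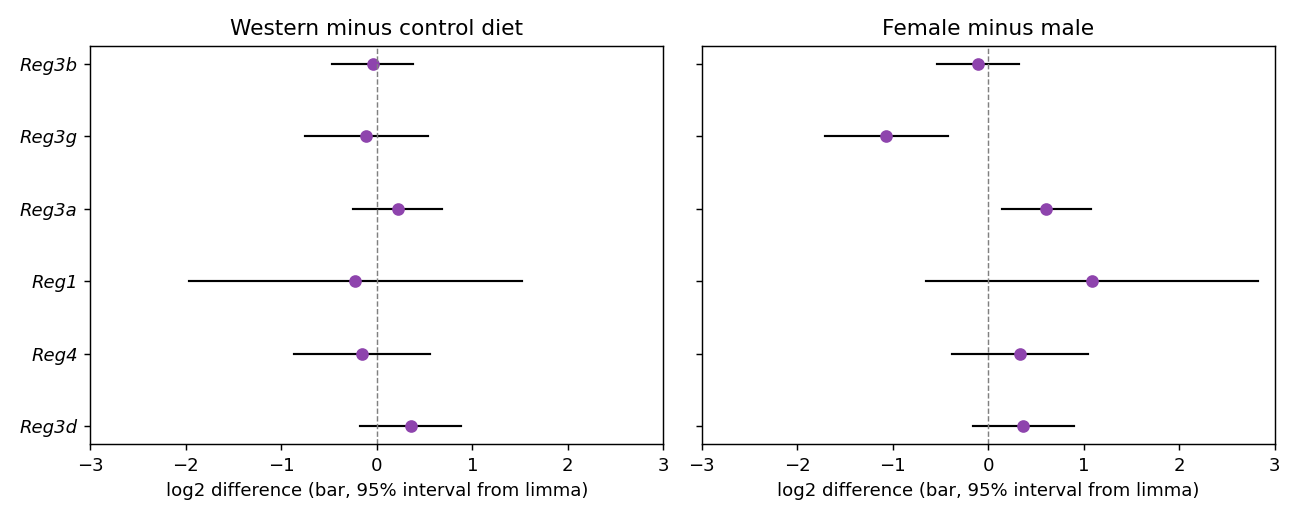
Log2 differences of the 5 members and Reg3d with 95% intervals from limma, Western minus control diet on the left and female minus male on the right. Every diet interval includes 0, and the sex intervals of Reg3g (-1.71 to -0.42) and Reg3a (0.14 to 1.08) lie on opposite sides of 0.

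Ratios within an array do not depend on how the arrays are centred. Reg3g minus Reg3b was -2.12 and -1.51 on the Western female arrays, -0.18 and -1.18 on the Western male arrays, -1.62 and -1.52 on the Control female arrays, and -0.42 and -1.15 on the Control male arrays. It averaged -1.70 ± 0.29 in females and -0.74 ± 0.51 in males (SD, n = 4 each), and the sexes as labelled did not overlap. Reg3g minus Reg3a averaged 1.67 ± 0.21 in females (1.42 to 1.91) and 3.34 ± 0.71 in males (2.44 to 4.03). Reg3a minus Reg3b averaged -3.36 ± 0.15 in females (-3.54 to -3.23) and -4.08 ± 0.37 in males (-4.46 to -3.62), also without overlap. How often the ratios of other gene pairs separate the sexes was not examined. Without the library labelled Control female 1 the female means were -1.72 for Reg3g minus Reg3b, 1.69 for Reg3g minus Reg3a and -3.41 for Reg3a minus Reg3b (n = 3). That library gave -1.62, 1.61 and -3.23 for these ratios in the same order. Counted with the males, it would make the sexes overlap in each of them. The level of such a ratio depends on the probes, so only its change between arrays can be read, and it shows unequal change of the genes and not which of them moved.

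Of the remaining genes of the family, Reg3d lay between -2.79 and -1.48 on all 8 arrays. It averaged -1.76 ± 0.23 on the Western and -2.11 ± 0.49 on the control arrays (0.35 ± 0.22 SE). Reg2 was well above background on 1 array, Control female 2, at -4.11, and was not tested. Extl3, a membrane glycosyltransferase that has been proposed as a Reg receptor, was nearly constant at 0.42 to 0.71, and 99.5% of all genes varied more. The probe sequences were not used here, so cross-hybridisation between Reg paralogs was not tested.

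The genes whose values over the 8 arrays were most like those of each member differed from member to member. For Reg3g, among 14809 genes with a symbol, they were Gask1b (Pearson r = 0.981), Dmbt1, a secreted mucosal scavenger receptor protein that binds bacteria (0.964), and the membrane protein Prom1 (0.953). Dmbt1 measured 5.28 to 5.46 on the female arrays and 6.08 to 7.51 on the male arrays, without overlap (-1.40 ± 0.37 SE, and -1.43 without the library labelled Control female 1). Dmbt1 was picked for its likeness to Reg3g over these same arrays. Its split by sex therefore follows largely from that choice and is no separate result. For Reg3a they were Tusc2 (0.982), Gps1 (0.980) and the glutathione transferase Gstm6 (0.979). For Reg3b they were Cd55, which restrains complement on cell surfaces (0.976), Tdrkh (0.910) and Pgs1 (0.905). For Reg1 they were Noxred1 (0.985), Fam124b (0.976) and Cyb5d1 (0.974), and for Reg4 they were Dele1 (0.971), Zw10 (0.954) and Ache (0.953). The genes like Reg1 shared its high value on Control female 2, and without that array their r was 0.958 for Noxred1, 0.887 for Fam124b and 0.930 for Cyb5d1. These correlations are descriptions over 8 arrays, some of which share slides. Noxred1 was well above background on 2 arrays, and Cyb5d1, Tdrkh and Ache on 3.

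Lists of genes around the Reg lectins were read next, upstream signals first. Of 14 tested genes of interleukin-22, interleukin-17 and interleukin-6 signalling, 3 were higher and 11 lower on the Western diet by sign, with a median of -0.21 against -0.06 for all genes, and 0 passed the adjusted threshold. Centring on the median adds the same amount to every diet difference, so these counts by sign belong to the 75th percentile scale. Il22, the cytokine that raises Reg3 genes, measured -4.14 to -3.47 on the Western and -3.68 to -1.82 on the control arrays (-0.77 ± 0.35 SE). The highest of these was Control female 2, without which the difference was -0.44. It measured -1.10 when the library labelled Control female 1 was left out. Socs3, a feedback inhibitor of STAT3 signalling, averaged 2.64 ± 0.49 on the Western and 3.23 ± 0.32 on the control arrays (-0.58 ± 0.29 SE). Il6ra differed by -0.88 ± 0.36 and the soluble interleukin-22 binding protein Il22ra2 by -0.76 ± 0.38. Leaving out Control female 2 gave a list median of -0.09 and differences of -1.13 for Il22ra2, -0.43 for Socs3 and -0.59 for Il6ra. Leaving out the library labelled Control female 1 gave -0.26 for the list, -0.39 for Il22ra2, -0.73 for Socs3 and -1.16 for Il6ra.

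Among 14 genes of microbial sensing, 5 were higher and 9 lower by sign and 0 passed (median -0.12). Without Control female 2 the count was 10 higher and 4 lower, with a median of 0.071. The lipopolysaccharide co-receptor Cd14 differed by -0.43 ± 0.20 SE and the adaptor Myd88 by 0.17 ± 0.16. Without Control female 2 these were -0.29 and 0.27, and without the library labelled Control female 1 they were -0.56 and 0.082. Of 12 other genes known as epithelial targets of interleukin-22, 7 were higher and 5 lower on the Western diet (median 0.13), and 0 passed. Without the library labelled Control female 1 the count was 4 higher and 8 lower (median -0.16), and without Control female 2 it was 8 higher and 4 lower (median 0.38). Of 12 other secreted antimicrobial proteins, 5 were higher and 7 lower (median -0.05). Among them the peptidoglycan-binding Pglyrp1 differed by -0.40 ± 0.17 SE and Mptx1 by 0.65 ± 0.56 SE.

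Between the sexes the epithelial targets of interleukin-22 had a median of -0.60, against 0.08 for all genes, with 3 higher and 9 lower in females by sign. With the library labelled Control female 1 left out that median was -0.089, and with Control female 2 left out it was -1.14. Their summed signal was 24.7 to 48.1 times the 75th percentile on the female arrays and 50.6 to 134 on the male arrays. Bright genes weigh most in such a sum. The mean log2 of the list overlapped, at -1.73 to -0.53 on the female and -0.97 to 0.72 on the male arrays. The other antimicrobial genes had 2 higher and 10 lower in females, with a median of -0.31 (-0.30 without the library labelled Control female 1). Interleukin-22, interleukin-17 and interleukin-6 signalling had 7 in each direction (median -0.01), and microbial sensing 7 in each direction (median -0.02). By the adjusted p 0 genes of any list passed for sex, and these signs too belong to the 75th percentile scale.

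Of 132 list genes tested, 10 had an unadjusted p under 0.05 for sex (7.58%, against 3.85% of all genes), 8 lower and 2 higher in females. Of the 8, 6 were lower on all arrays labelled female than on all male arrays. That is 4.55% of the list genes, against 1.03% of all genes for the overlap criterion alone. The lists were chosen with earlier results of these data known, so these shares are no separate support. Without the library labelled Control female 1, 14 list genes had an unadjusted p under 0.05 (10.6%, against 13.0% of all genes). That fit left Control female 2, which stood apart, as the only Control female array. Saa1, Saa2, Lypd8, Retnlb and Lct are named here after their values were seen. Duoxa2, which matures the epithelial dual oxidase that makes hydrogen peroxide, measured 1.93 to 3.30 on the female arrays and 3.52 to 4.88 on the male arrays (-1.54 ± 0.36 SE). The acute-phase protein genes Saa1 and Saa2, which are close paralogs, differed by -2.64 ± 0.73 and -2.88 ± 0.74, and Saa1 measured 0.28 to 1.67 on the female arrays and 2.32 to 5.64 on the male arrays. Lypd8, which keeps flagellated bacteria from the epithelium, differed by -0.70 ± 0.22. Retnlb, a goblet cell antibacterial protein, differed by -2.79 ± 1.01 and was well above background on 6 arrays. The mucin Muc2 differed by -0.54 ± 0.17, with overlap. Without the library labelled Control female 1 the differences were -1.21 for Duoxa2, -2.61 for Saa1, -2.80 for Saa2, -0.67 for Lypd8, -1.69 for Retnlb and -0.56 for Muc2.

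Markers of region were set beside these values. Of 7 tested proximal markers 4 were higher and 3 lower in females by sign (median 0.015, against 0.08 for all genes; 0.71 without the library labelled Control female 1), and of 8 distal markers 5 were higher and 3 lower (median 0.05). None passed the adjusted threshold (0 genes). Among the proximal genes the fatty acid binding protein Fabp1 and the lactase Lct had higher means in females, with overlap, while the iron exporter Slc40a1 (-0.89 ± 0.39 SE) and the ferric reductase Cybrd1 (-0.32 ± 0.39 SE) had lower ones. Fabp1 differed by 1.54 ± 0.37 SE (1.53 without the library labelled Control female 1), and Lct measured 6.92 to 8.55 on the female arrays and 6.09 to 7.26 on the male arrays. Among the distal genes Slc51b differed by -0.44 ± 0.14 SE. It was 1 of the 6 list genes lower on all female than on all male arrays. Slc10a2 differed by -0.85 ± 0.37 SE, with overlap, while Guca2a (0.27 ± 0.21 SE) and Fabp6 (0.04 ± 0.16 SE) had higher means in females. The summed signal of the 7 tested proximal markers was 336 to 879 on the female arrays and 178 to 456 on the male arrays, and that of the 8 distal markers was 1289 to 1592 on the female arrays and 1137 to 1562 on the male arrays. Neutrophil markers, 5 of which were tested, summed to 13.1 to 18.3 on the female and 15.5 to 37.0 on the male arrays. Paneth cell markers (8 tested) summed to 1480 to 1754 on the female and 1309 to 1813 on the male arrays. Smooth muscle markers summed to 49.1 on Control male 1 and to 6.14 to 20.6 on the other 7 arrays. The part of these markers in the Reg3g and Reg3a values was not tested.

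**Figure D4:**
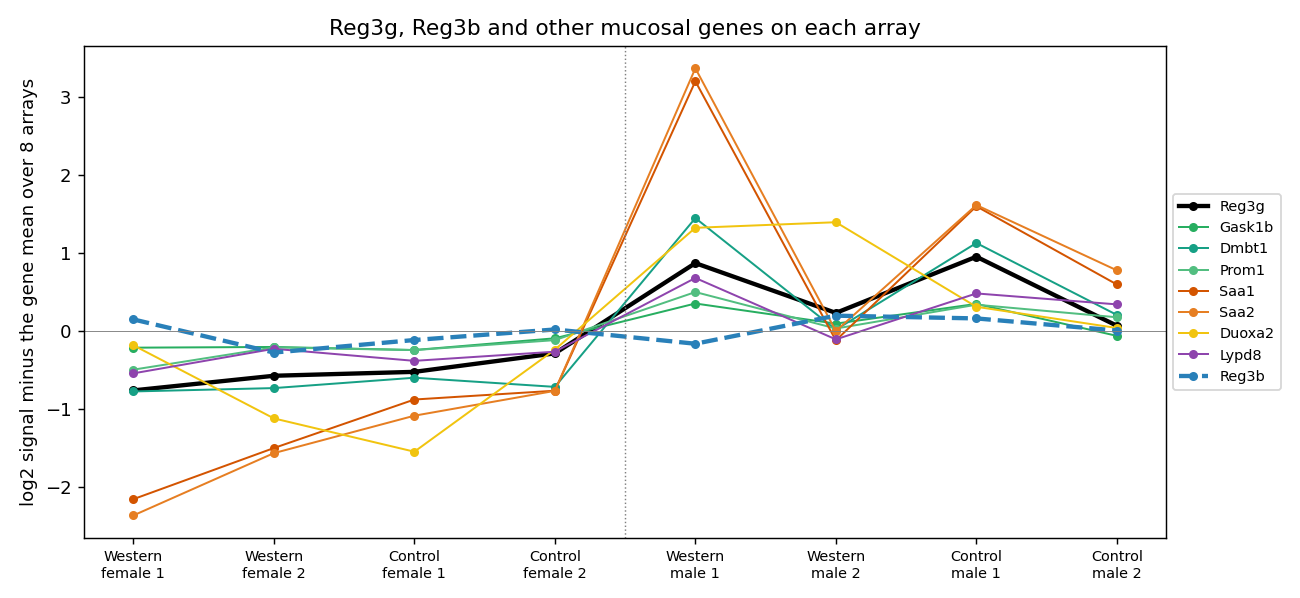
Log2 signal minus the mean of each gene over the 8 arrays for Reg3g (black), Reg3b (blue, dashed), the 3 genes most like Reg3g, and Saa1, Saa2, Duoxa2 and Lypd8. The female arrays stand left of the dotted line and the male arrays right of it. Reg3g and Dmbt1 are lower on all 4 arrays labelled female than on any male array, while Reg3b runs across both at 8.49 to 8.96. The 3 genes most like Reg3g were picked by their values on these arrays, so their likeness to it is no separate result. Saa1, Saa2 and Lypd8 were named after their values were seen.

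**Figure D5:**
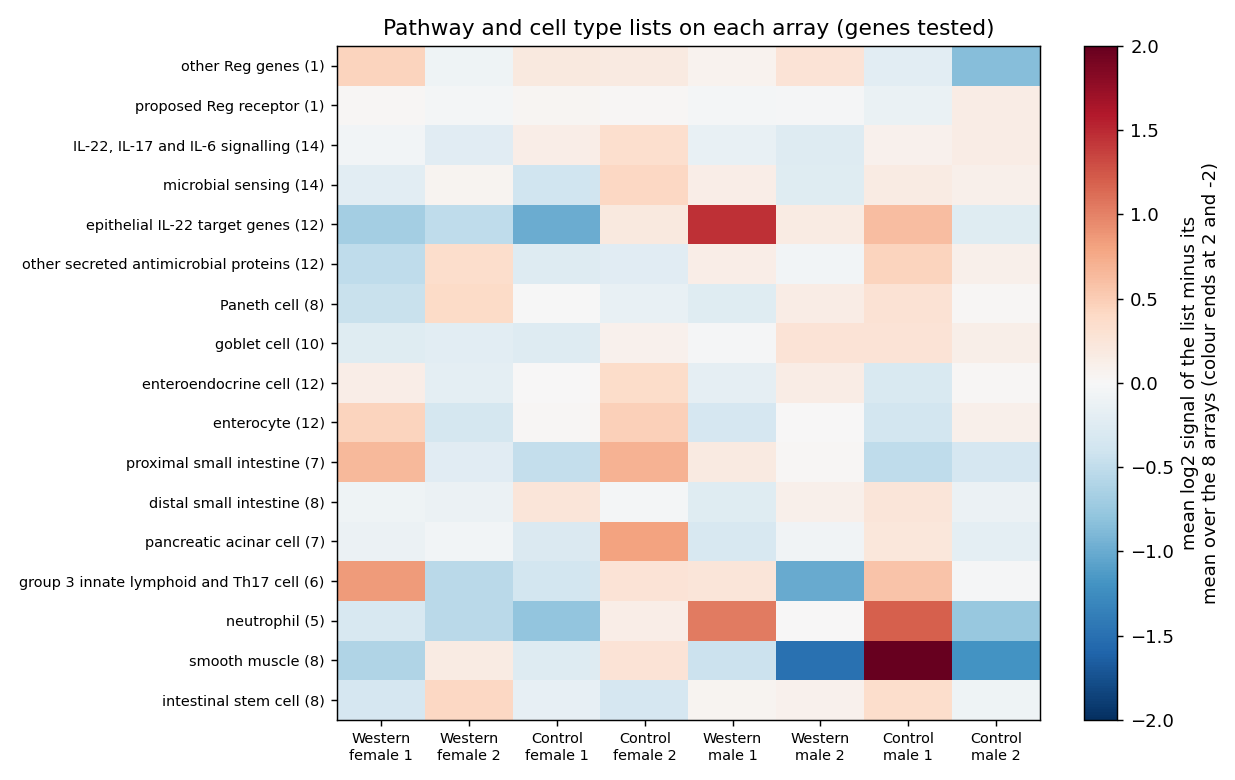
Mean log2 signal of each list of genes on each array, minus the mean of that list over the 8 arrays, with the number of genes tested in brackets and colours that end at 2 and -2. The epithelial interleukin-22 targets are highest on Western male 1, the acinar list on Control female 2 and the smooth muscle list on Control male 1.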

How the data were processed

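RNA of 8 samples was measured on single-colour Agilent arrays. Each file was the deposited output of Feature Extraction 10.7.3.1 for a single array, per the file headers. Its processed signal is a linear intensity, background-subtracted by that software before the authors deposited it. The 1377 control spots and the 94 to 216 spots per array marked as outliers were left out, the spots of 399 repeated probes were averaged, and log2 of the processed signal minus the array's 75th percentile was taken from the deposited values. Probes were named by accession through RefSeq (GRCm38.p6), which gave 26412 of 39429 probes a symbol (20017 symbols). The headers name an older mouse build, so no gene coordinates were printed beside the promoter windows. A probe was kept where at least 2 arrays had it well above background (25738 probes), and the brightest probe of each gene was tested (21308 genes, 14827 with a symbol).

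A model of 4 group means was fitted in limma 3.58.1 (R 4.3.3, with the data.table package at version 1.17.8) to all 8 arrays (4 residual and 2.01 prior degrees of freedom), with p-values adjusted over all genes by the Benjamini-Hochberg method at 0.05 and 95% intervals. The procedure was tested on simulated data. Promoter windows were aligned with Biopython 1.88. Alternatives were another background correction (normexp with an offset of 50, run on the median signal because the mean signal was not in the columns used), quantile and median scaling, other filters, slide, scan day or replicate number as a block, values within slides or diets, and leaving out each array. Slide 1 held replicate 1 of all groups, slide 2 Western male 2 and slide 3 the other 3 arrays, which were scanned on day 2.

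The text names the 5 members, Reg2, Reg3d, Extl3, up to 4 genes of each list with the smallest p for the diet effect, and for each member the 3 genes with the highest correlation. Genes outside this rule (Saa1, Saa2, Lypd8, Retnlb and Lct, the acinar genes below the filter, the acinar genes Gp2, Amy2a5 and Ctrb1, and Ddx3y as a check of the labels) were named with their values already known. The members and lists were chosen with earlier results of these data known.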

Additional observations from a re-analysis of the deposited data

Results flagged for a closer look

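Extl3, the proposed Reg receptor, had 1 array apart from the rest of its diet. Western female 1 measured 0.59 (log2 relative to the 75th percentile), and its gap to the next Western array was 0.860 of the range of the 4 Western arrays, above Dixon's 95% critical value for 4 samples. The whole Western range was 0.53 to 0.59, narrower than the 0.42 to 0.71 of the control arrays. This was 1 of 28 combinations of gene and grouping examined, and chance flags about 1 in 20.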

How the results depend on the processing

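Of 500 alternative values of the members over the 5 comparisons, 460 had a test and 0 of these passed the adjusted threshold. The other 40, within slides, had no test. In all, 444 kept the sign reported. With 2 arrays per group, small differences had no settled sign. Centring on the array median, instead of the 75th percentile, gave diet differences of 0.15 for Reg1, 0.33 for Reg3b, 0.26 for Reg3g and 0.22 for Reg4. It gave 0.082 for Reg3b in males, 0.51 for Reg3a, 0.58 for Reg3b, 0.33 for Reg3g and 0.51 for Reg4 in females, and 0.14 for Reg3g in the difference between sexes. It called 65 genes for diet, 32 in males, 82 in females, 20 for their difference and 83 for sex, where the 75th percentile called 0. By construction it moved all genes of an array alike. Normexp gave 0.011 for Reg3b and 0.000105 for Reg4 in females, and quantile normalization 0.000838 for Reg3b. With slide as a block Reg3g differed by 0.011 for diet and Reg3b by 0.021 for sex, and Reg3a by 0.031 for diet and 0.14 in males, and with scan day as a block Reg3g differed by -0.036 in males. Within slide 1 the Reg3g sex difference was -1.55. Within slide 3 the diet differences of the females were -2.95 for Reg1, -0.11 for Reg3a and -0.30 for Reg3b, and the sex differences of the control diet were 3.78 for Reg1, 0.87 for Reg3a and -0.35 for Reg3g. The cause was not tested.

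Leaving out 1 array at a time gave these ranges. For diet they were -0.99 to 0.54 (Reg1), 0.046 to 0.39 (Reg3a), -0.15 to 0.065 (Reg3b), -0.33 to 0.11 (Reg3g) and -0.41 to 0.11 (Reg4). In males they were -0.10 to 0.93 (Reg1), 0.17 to 0.86 (Reg3a), -0.25 to 0.11 (Reg3b), -0.40 to 0.48 (Reg3g) and -0.75 to 0.30 (Reg4). In females they were -2.39 to 0.67 (Reg1), -0.23 to 0.20 (Reg3b) and -0.43 to 0.26 (Reg4). For the difference between sexes they were -2.81 to 0.25 (Reg1), -0.94 to -0.25 (Reg3a), -0.16 to 0.26 (Reg3b), -0.75 to 0.14 (Reg3g) and -0.38 to 0.66 (Reg4). For sex they were -0.21 to 4.58e-05 (Reg3b), -1.29 to -0.85 (Reg3g), 0.44 to 0.78 (Reg3a), 0.069 to 0.59 (Reg4) and 0.32 to 1.85 (Reg1). Genes called ranged from 0 to 395 in females, 0 to 2 for the difference and 0 to 3 for sex, and the highest counts all came without the library labelled Control female 1. An arm left with 1 array was assumed to vary like the other groups. Groups share replicate numbers in the labels, but deviations of same-numbered arrays correlated above 0.1 in only 2 of 6 pairs of groups (-0.119 to 0.352), and the labels tie no number to an animal. By the file headers replicate 1 of every group lay on slide 1 and 3 of the 4 arrays of replicate 2 on slide 3, so the number is tied to slide and scan day. The replicate block changed no call of a member (Reg3g for sex -1.07, limma adjusted p = 0.885).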
